A study of Saccharomyces cerevisiae with 6 samples.

Results

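The 10 yeast genes described here make the main membrane phospholipids or set how strongly the pathway is expressed: CHO1, CHO2, OPI3, PSD1, PSD2, PIS1, INO1, INO2, INO4 and OPI1. They were chosen by gene symbol, and each was read by 1 probe set, giving 10 of the 5449 S. cerevisiae genes on the array. RNA came from 2 groups of 3 samples of budding yeast. In the zymolyase group, cells were treated at 25 °C for 20 min with zymolyase, which lyses yeast cell walls by breaking down their glucan, and RNA was then isolated with the MagExtractor kit. In the control group, untreated cells were extracted with the FastRNA Pro Red kit. Both groups shared the strain label BY4743, a MATa/α diploid with the alleles his3Δ1, leu2Δ0, ura3Δ0, met15Δ0 and lys2Δ0, and both grew for 2 days at 25 °C in YPD, a rich medium, with 0.01% of the detergent SDS. Enzyme and kit changed together, so their effects cannot be told apart.

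Yeast makes most of its phosphatidylserine, phosphatidylethanolamine and phosphatidylcholine in 1 chain of reactions that starts from CDP-diacylglycerol. Cho1 makes phosphatidylserine, Psd1 and Psd2 decarboxylate it to phosphatidylethanolamine, and Cho2 and Opi3 methylate that to phosphatidylcholine. Pis1 uses the same CDP-diacylglycerol with inositol, which the enzyme Ino1 makes from glucose 6-phosphate, to form phosphatidylinositol. Many of these genes carry an inositol-sensitive promoter element, UASINO, that is bound by the activator pair Ino2 and Ino4 and is silenced through the repressor Opi1 when inositol is plentiful.

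The values were MAS5 signals, a brightness per probe set on a linear scale, which differ in scale from one probe set to another, so a gene is compared here only with itself. Median signals over genes were 629.7 to 677.6 on the zymolyase arrays and 552.0 to 600.8 on the control arrays. Background, read as the 95th percentile of the probe sets for the second yeast species on the array, was 8.3 to 10.9, and the lowest signal of any of the 10 genes was 72.0. The strain label was not borne out: LEU2 and URA3, deleted in the label, had signals of 370.9 and above on all 6 arrays. A MATa/α diploid represses the genes specific to either mating type, yet the 4 alpha-cell genes lay between 1485.4 and 7412.3, and the 7 a-cell genes between 8.0 and 133.8. RNA on the zymolyase arrays was read less toward the 5′ end: the 3′ over 5′ signal ratio of 8 yeast control genes was 4.57, 7.21 and 6.71 there and 1.49, 1.98 and 1.99 on the control arrays. The log2 difference was 1.74 with a standard error (SE) of 0.25 (exact two-sided permutation p = 0.1, the smallest that 3 against 3 arrays can give). Its part in the changes below was not tested.

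Of the 10 genes, 2 rose in the zymolyase arrays, 4 fell and 4 did not pass the test. The test was limma's moderated test on log2 signal, called at a Benjamini-Hochberg adjusted p under 0.05, the adjustment covering every gene. Over all 5449 genes, 22.5% rose, 20.0% fell and 42.5% were called in either direction. These were 1224 higher and 1092 lower genes, against 951 and 1463 with each array centred on its median, which shifted the median change of all genes by -0.16; 1 of the 10 genes then rose and 4 fell. The same 2 and 4 genes were those whose 3 zymolyase values lay wholly above or below the 3 control values, which 52.9% of all genes did. The median log2 change of the 10 genes was -0.13, against 0.04 for all genes. A share of 6 in 10 is not far from that background, and the results lie in which genes moved and how far. All 6 called genes encode enzymes, of which the 10 hold 7, and the 3 regulators were not called. In a whole culture, less transcript per cell cannot be told apart from fewer cells that carry it.

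**Figure D1:**
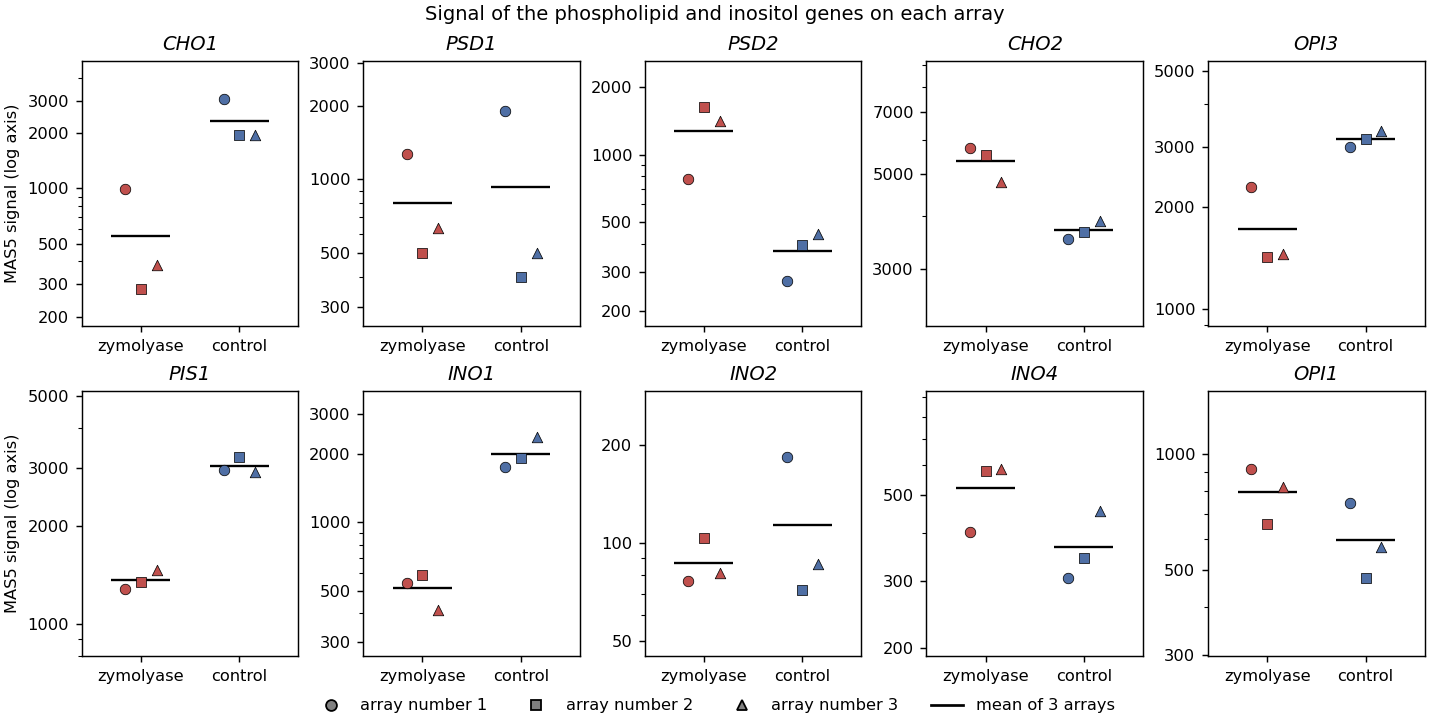
Each panel shows 1 gene, with the MAS5 signal of each array on a log axis, zymolyase arrays on the left and control arrays on the right; marker shapes give the array number and bars the mean of 3. CHO1, OPI3, PIS1 and INO1 are lower and PSD2 and CHO2 higher on every zymolyase array than on any control array, while PSD1 is high on the arrays numbered 1 of both groups.

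CHO1, for phosphatidylserine synthase, showed the largest change of the 10 genes. Its signal was 986.9, 283.5 and 384.6 on the zymolyase arrays, against 3072.0, 1949.5 and 1949.3 on the control arrays. Every zymolyase value lay below every control value, and in each group the array numbered 1 was the brightest. The gene fell 4.77-fold (log2 change -2.25, SE 0.44, adjusted p = 0.00523, limma), which placed it at percentile 0.330 of the changes of all genes. Within the same-numbered pairs of arrays the log2 change was -1.64, -2.78 and -2.34.

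Of the phosphatidylserine decarboxylase genes, PSD2 rose and PSD1 did not pass the test. PSD2, for the enzyme of the Golgi and endosome membranes, had signals of 781.5, 1633.8 and 1409.9 on the zymolyase arrays and 273.5, 395.5 and 441.3 on the control arrays. The groups did not overlap, and PSD2 rose 3.35-fold (log2 1.75, SE 0.30, adjusted p = 0.00362, limma), at percentile 98.7 of all genes. PSD1, for the mitochondrial enzyme, had signals of 1272.5, 498.8 and 630.9 on the zymolyase arrays and 1906.7, 399.6 and 497.4 on the control arrays. In both groups the array numbered 1 was far above the others, and the groups overlapped. Its log2 change was 0.03 with a 95% interval of -1.35 to 1.40, so these arrays allow anything from a 0.393-fold to a 2.64-fold level (adjusted p = 0.977, limma). Without both arrays numbered 1 the change of PSD1 was 0.33 (adjusted p = 0.0906). With the replicate number as a block its interval narrowed to -0.46 to 0.51.

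The methyltransferases of phosphatidylcholine synthesis moved in opposite directions. CHO2, which adds the first methyl group, had signals of 5743.9, 5542.2 and 4790.5 on the zymolyase arrays and 3529.9, 3662.7 and 3896.9 on the control arrays. All zymolyase values were the higher ones, and CHO2 rose 1.45-fold (log2 0.53, SE 0.13, adjusted p = 0.0134, limma). OPI3, which adds the remaining methyl groups, had signals of 2288.4, 1424.0 and 1454.8 on the zymolyase arrays and 3001.5, 3157.5 and 3346.0 on the control arrays. It was lower on every zymolyase array and fell 1.88-fold (log2 -0.91, SE 0.20, adjusted p = 0.00864, limma). The rise of CHO2 was the least secure of the 6 calls: its adjusted p was 0.0928 (log2 0.37) with each array centred on its median, 0.0610 (log2 0.45) without both arrays numbered 1, and 0.579 (log2 0.11) with the trend of signal with coding length removed.

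Both genes of the inositol branch fell. PIS1, for phosphatidylinositol synthase, had signals of 1278.7, 1345.0 and 1467.8 on the zymolyase arrays and 2958.1, 3243.6 and 2926.4 on the control arrays. The spread within each group was small beside the gap between them, and PIS1 fell 2.23-fold (log2 -1.16, SE 0.13, adjusted p = 0.00108, limma). INO1, for the inositol 3-phosphate synthase and the textbook reporter of the pathway, had signals of 541.8, 587.7 and 414.9 on the zymolyase arrays and 1745.0, 1910.0 and 2363.4 on the control arrays. It fell 3.91-fold (log2 -1.97, SE 0.19, adjusted p = 0.00100, limma), at percentile 0.863 of all genes. Its log2 change was -1.69, -1.70 and -2.51 in the 3 pairs. The calls of CHO1, PSD2, OPI3, PIS1 and INO1 held under all 17 alternative settings, among them the removal of each array in turn.

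None of the 3 regulators passed limma's test on the deposited scaling, and their unadjusted p-values were 0.460 for INO2, 0.0526 for INO4 and 0.0784 for OPI1. INO2, the activator subunit that carries the activation domain, was the dimmest of the 10 probe sets, with signals of 76.3, 103.7 and 81.0 on the zymolyase arrays and 183.1, 72.0 and 86.4 on the control arrays. Control array 1 stood well above the other 5 arrays, and the groups overlapped. Its log2 change was -0.28 (SE 0.36, 95% interval -1.10 to 0.55, adjusted p = 0.562, limma), and it took the other sign without control array 1, at 0.13, and without both arrays numbered 1, at 0.22. INO4, the partner subunit, had signals of 402.3, 579.9 and 585.6 on the zymolyase arrays and 305.4, 343.0 and 456.3 on the control arrays. Only the dimmest zymolyase value fell within the control range, and the log2 change was 0.51 (SE 0.22, 95% interval -0.01 to 1.02, adjusted p = 0.101, limma). OPI1, the repressor, had signals of 912.5, 658.3 and 818.9 on the zymolyase arrays and 743.9, 477.5 and 574.6 on the control arrays. The groups overlapped and the log2 change was 0.42 (SE 0.21, 95% interval -0.06 to 0.91, adjusted p = 0.139, limma).

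The arrays of both groups carry the numbers 1 to 3. Same-numbered arrays deviated together across genes, so the numbers were also used as a replicate block. This pairing was drawn from the same values. Zymolyase array 2 was as close to control array 3 (r = 0.20) as to control array 2 (0.20), so numbers 2 and 3 were not clearly separate pairs. With the replicate block INO4 and OPI1 were called higher (adjusted p = 0.0183 and 0.0234, limma), each being higher in 3 of 3 pairs. The count of the 10 genes that rose was then 4 in place of 2, and 58.6% of all genes were called in either direction. INO4 was also called without zymolyase array 1 (log2 0.68, adjusted p = 0.0313) and OPI1 without control array 1 (log2 0.59, adjusted p = 0.0376). INO2 differed in sign among its pairs, at -1.26, 0.53 and -0.09.

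**Figure D2:**
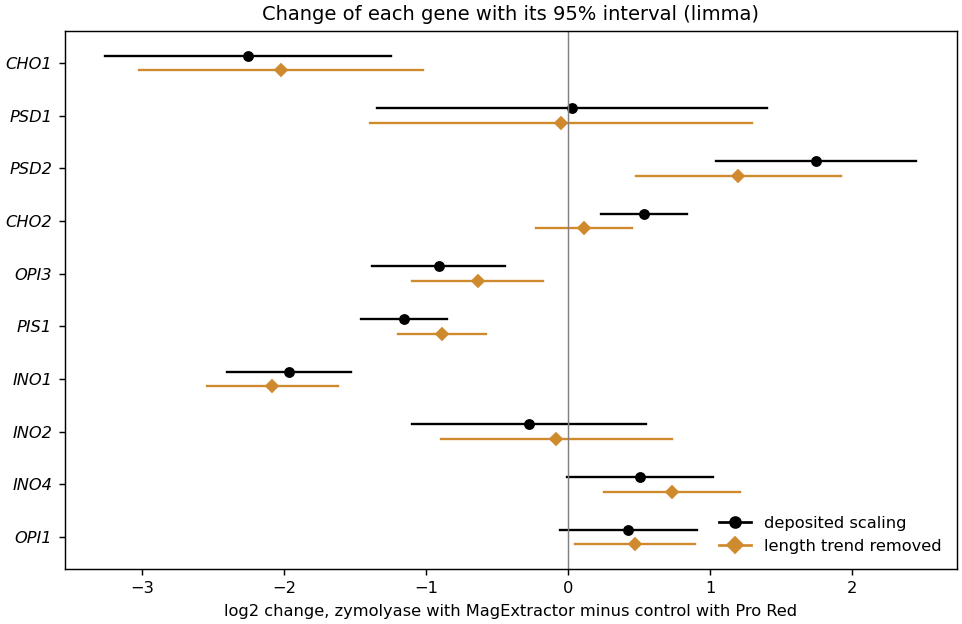
Points give the log2 change of each of the 10 genes, zymolyase minus control, with 95% intervals from limma on 3 arrays per group; black circles use the deposited scaling and orange diamonds the values with the length trend removed. CHO1 and INO1 lie near -2 under both, PSD2 is at 1.75 and 1.20, and CHO2 is at 0.53 and 0.11.

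Differences in change between members were compared for 5 pairs with linked roles in the pathway, by an exact two-sided permutation test over arrays. CHO2 and OPI3 parted the most clearly: the change of CHO2 exceeded that of OPI3 by 1.45 on the log2 scale (SE 0.18), by 1.09, 1.75 and 1.50 in the 3 pairs of arrays, and the groups did not overlap (exact permutation p = 0.1, the smallest possible, and 0.3 adjusted over the 5 pairs). That difference was 0.75 with the length trend removed. The change of PSD1 minus that of PSD2 was -1.72 (SE 1.16, exact permutation p = 0.3). It was negative in 3 of 3 pairs, at -2.10, -1.73 and -1.33, and its size rested in part on single arrays: it was -0.82 without control array 1 and -2.43 without zymolyase array 1. CHO1 and PIS1, whose enzymes draw on the same CDP-diacylglycerol, differed by -1.10 (SE 0.63, exact permutation p = 0.3). With single arrays left out this ran from -0.73 (without zymolyase array 2) to -1.67 (without zymolyase array 1). INO2 minus INO4 was -0.78 (SE 0.55, p = 0.2) and INO2 minus OPI1 -0.70 (SE 0.36, p = 0.3, exact permutation tests). Without control array 1, the bright array of INO2, these differences were -0.25 and -0.46. No pair passed, and the exact permutation test over 3 against 3 arrays cannot give a p under 0.1.

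The falls and rises among the 10 genes followed coding length in part, as did those of all genes. When all genes were split into 10 equal classes by coding length, the median log2 change was -0.33 in the second class, which holds OPI3 (621 bases) and INO4 (456 bases). It was -0.21 in the third class, which holds PIS1 (663 bases) and CHO1 (831 bases). The median was 0.44 in the ninth class, with CHO2 (2610 bases), and 0.60 in the longest, with PSD2 (3417 bases). The change of CHO2 was therefore close to that of the median gene of its length. INO1 (1602 bases) lay in a class with a median of 0.08, so its fall ran against the trend, as did the log2 change of INO4, 0.51 in a class with a median of -0.33. With the trend removed INO4 passed the test (log2 0.73, adjusted p = 0.0272, limma). With the trend removed the log2 changes were -2.02 for CHO1, -2.08 for INO1, -0.89 for PIS1, -0.64 for OPI3 and 1.20 for PSD2, and each stayed past the threshold. In that setting 38.0% of all genes were called, and 2 of the 10 genes rose (PSD2 and INO4) and 4 fell.

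**Figure D3:**
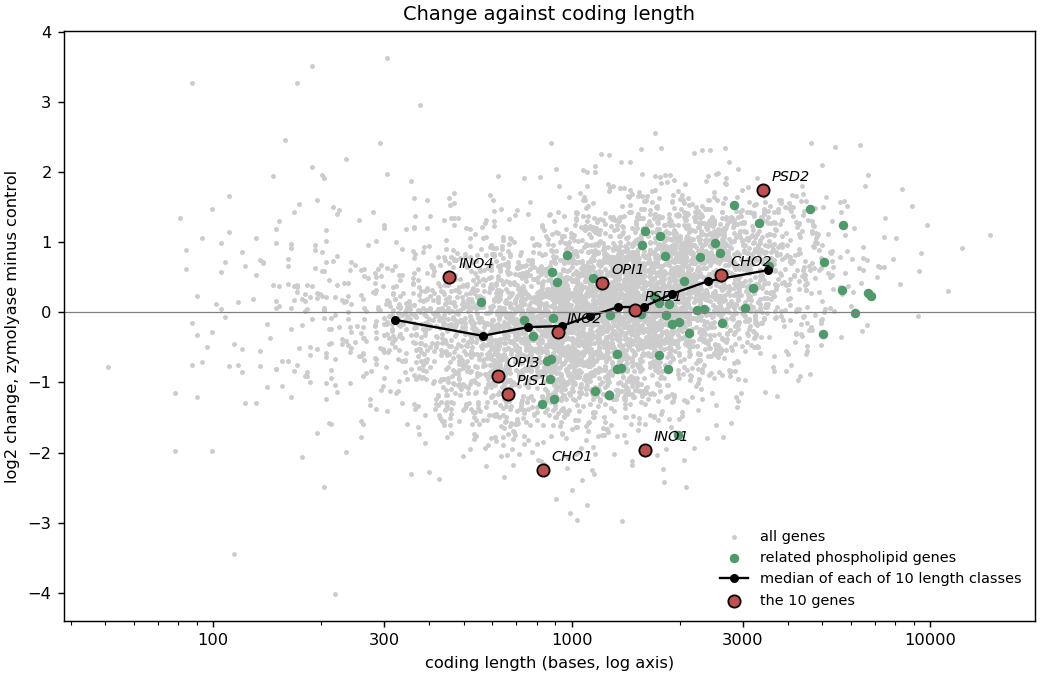
Each point is a gene, with coding length in bases on a log axis and the log2 change, zymolyase minus control, on the other; grey marks all 5449 genes, green the related phospholipid genes, red the 10 genes, and the black line joins the medians of 10 length classes. CHO2 lies on the line, PSD2 above it, and CHO1 and INO1 far below it.

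Several of the 10 genes also varied with the array number. PSD1 was brighter on the arrays numbered 1 than on the mean of the other arrays of its group by 2.27-fold in the zymolyase group and by 4.28-fold in the control group. Ranked by the smaller of the 2 excesses, PSD1 was number 42 of 5449 genes. CHO1 was brighter on them by 2.99-fold and 1.58-fold (rank 225). PSD2 ran the other way, with 0.515 and 0.655 times the level of the other arrays. The array numbered 1 was the brightest of its group in both groups for 3 of the 10 genes (30.0%) and for 27.8% of all genes, and the dimmest in both for 2 (20.0%) and for 23.0% of all genes. What the numbers stand for is not given in the labels.

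Of 56 other genes of phospholipid metabolism and its control, 15 rose, 12 fell and 29 did not pass, with a median log2 change of 0.06. These counts stand beside 22.5% higher and 20.0% lower over all genes, so the share called was near the background. All 56 were above background on all arrays. Without zymolyase array 3 or without control array 2, only 9 of the 56 rose, where 851 and 858 of all 5449 genes did. With the length trend removed 10 rose and 19 fell, and the median was -0.14. In that setting 985 of all 5449 genes rose and 1085 fell, so the share that fell was larger among the 56. No test set them against other genes. These shares of all genes also stand beside the counts of each list below.

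The list for phosphatidic acid and CDP-diacylglycerol, the precursors upstream of CHO1 and PIS1, held the most falls: 8 of 14 genes fell and 3 rose. Its median was -0.73, where 20.0% of all genes fell and the median of all genes was 0.04. The list joins genes that make these precursors with phosphatases that remove phosphatidic acid, so its falls are not a measure of supply. No test set this list against other genes. TAM41, the mitochondrial CDP-diacylglycerol synthase, had signals of 331.9, 245.5 and 361.7 on the zymolyase arrays and 666.9, 621.6 and 731.6 on the control arrays, and fell 2.18-fold (adjusted p = 0.00304, limma). CDS1, its counterpart of the endoplasmic reticulum, fell 1.73-fold (adjusted p = 0.0471), a call lost without any single array other than zymolyase array 1, at adjusted p of 0.0597 to 0.156. LPP1, a lipid phosphate phosphatase, fell 2.48-fold and AYR1, which reduces acyl-dihydroxyacetone phosphate on the way to phosphatidic acid, 2.35-fold (adjusted p = 0.00242 and 0.00239). APP1, a phosphatidate phosphatase of actin patches, rose 2.12-fold, with signals of 885.1, 954.6 and 891.6 on the zymolyase arrays and 464.4, 382.6 and 446.0 on the control arrays (adjusted p = 0.00153). SCT1 and SLC1, acyltransferases on the way to phosphatidic acid and named after their values were seen, also rose. Their log2 changes were 0.78 and 0.44 (adjusted p = 0.00868 and 0.0278, limma). SCT1 lost its call with the length trend removed (0.0697). SLC1 lost its call with median centring (0.124) and without any single array other than zymolyase array 1 (0.0525 to 0.117). The acyltransferase genes of this list were mixed. ALE1 fell (log2 -0.81, adjusted p = 0.00782, limma), and its change was -1.03 with the length trend removed (adjusted p = 0.00384). GPT2 had a log2 change of 0.03 (adjusted p = 0.960). Both were named after their values were seen. PAH1, the main phosphatidate phosphatase and named after its values were seen, had a log2 change of 0.84 (adjusted p = 0.0511, limma). It was called with the replicate block (0.00501) and without control array 1 (log2 1.15, adjusted p = 0.00446), and with the length trend removed its change was 0.42 (adjusted p = 0.264). Other phosphatase genes of the list, also named after their values were seen, fell. DPP1 had a log2 change of -0.95 and NEM1 of -0.81 (adjusted p = 0.00436 and 0.0128, limma). With the length trend removed these were -0.74 and -0.82 (adjusted p = 0.0123 and 0.0166). NEM1 lost its call without control array 3 (0.0513). With the length trend removed 8 of the 14 fell and 2 rose.

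The route that builds phosphatidylcholine and phosphatidylethanolamine from free choline and ethanolamine had 2 of 6 genes higher and 2 lower (median -0.32), and 1 higher and 3 lower with the length trend removed. The rise lost there was that of EKI1, described below. The added fall was that of CKI1, the choline kinase, named after its values were seen. The log2 change of CKI1 was -0.61 (adjusted p = 0.0774, limma). It was called lower with the replicate block (0.00662), median centring (0.0277), quantile normalization (0.0385) and the length trend removed (0.0266). The last enzymes of the route were lower. CPT1, the cholinephosphotransferase, had signals of 647.6, 545.8 and 631.5 on the zymolyase arrays and 1092.9, 1593.7 and 1495.7 on the control arrays, and fell 2.27-fold (adjusted p = 0.00241, limma). EPT1, the ethanolaminephosphotransferase, fell 2.26-fold (adjusted p = 0.0157, and 0.0548 without zymolyase array 2). The earlier ethanolamine enzymes were higher. ECT1, which makes CDP-ethanolamine, rose 1.75-fold, with signals of 1454.3, 1346.4 and 1429.5 on the zymolyase arrays and 897.5, 767.3 and 752.7 on the control arrays (adjusted p = 0.00345). EKI1, the ethanolamine kinase, rose 2.22-fold (adjusted p = 0.0270). The call of EKI1 was lost without zymolyase array 2 or 3 or control array 1 or 2 (adjusted p = 0.0545 to 0.103), with the length trend removed (0.0539) and after quantile normalization (0.0504).

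**Figure D4:**
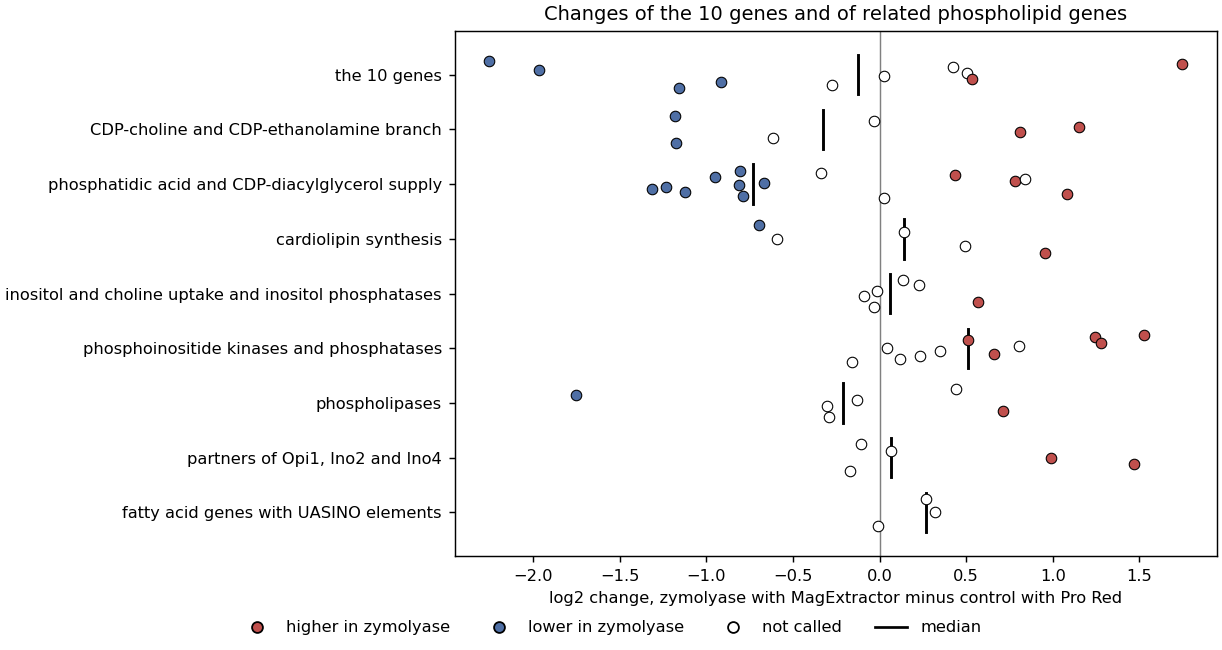
Each circle is a gene placed by its log2 change, zymolyase minus control, with 3 arrays per group, in rows for the 10 genes and 8 lists of related genes; red is called higher, blue called lower, white not called, and vertical bars are medians. The phosphatidic acid and CDP-diacylglycerol list has its median at -0.73 and the phosphoinositide enzymes theirs at 0.51.

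Among 11 enzymes that phosphorylate, dephosphorylate or cleave phosphatidylinositol, the product of Pis1, 5 rose, none fell and 6 did not pass (median 0.51). The share called was near the 42.5% of all genes called in either direction. All calls here were rises, where 22.5% of all genes rose and 20.0% fell. No test set this list against other genes. INP51, a phosphatase of phosphatidylinositol 4,5-bisphosphate, had signals of 964.0, 1004.1 and 1148.3 on the zymolyase arrays and 330.8, 351.0 and 401.3 on the control arrays, and rose 2.88-fold (adjusted p = 0.00100). INP53, a related phosphatase, rose 2.43-fold and STT4, the plasma membrane phosphatidylinositol 4-kinase, 2.37-fold (adjusted p = 0.00148 and 0.00108). PLC1, the phospholipase C, rose 1.42-fold (adjusted p = 0.0223). These are long genes (median 2841 coding bases), and with the length trend removed their median was 0.09, with 3 higher and 2 lower, where 38.0% of all genes were called. INP51, INP53 and STT4 then kept a log2 change of 1.06, 0.74 and 0.47, each past the threshold, and that of PLC1 was 0.09 (adjusted p = 0.615). The call of PLC1 was also lost with median centring (0.0582) and without zymolyase array 3 or control array 2 or 3, at adjusted p of 0.0513 to 0.0962.

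Of 6 genes for uptake and for inositol phosphate phosphatases, 1 rose and 5 did not pass (median 0.06). ITR1, the main inositol permease and a UASINO gene like INO1, had signals of 6055.0, 5879.4 and 4528.3 on the zymolyase arrays and 5678.8, 4755.8 and 4492.2 on the control arrays (log2 0.14, 95% interval -0.24 to 0.52, adjusted p = 0.533, limma; named after its values were seen). INM2, an inositol monophosphatase, rose 1.48-fold (adjusted p = 0.0274). That call was lost with median centring (0.0745) and without any single array other than zymolyase array 1 (0.0505 to 0.116).

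Genes listed as carrying UASINO elements, beside those among the 10, were mixed. Of 10 such genes 3 fell (CPT1, EPT1 and CDS1), 1 rose (EKI1) and 6 did not pass, with a median of 0.06. Over all genes 22.5% rose and 20.0% fell, so the share called was near the background. The fatty acid synthesis genes among them were not called: FAS2, a fatty acid synthase subunit, had a log2 change of 0.32 (adjusted p = 0.102), ACC1, the acetyl-CoA carboxylase, one of 0.27, and FAS1, the other synthase subunit, one of -0.01. With the length trend removed, which for these very long genes shifts the values downward, all 3 had negative changes, at -0.45, -0.56 and -0.81, with FAS1 and ACC1 past the threshold (adjusted p = 0.0106 and 0.0297). In that setting 6 of the 10 UASINO genes fell, where 1085 of all 5449 genes fell. No test set the UASINO genes against other genes. With the replicate block and no length correction, by contrast, FAS2 and ACC1 were called higher (adjusted p = 0.0170 and 0.0243).

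Of 5 partners of the regulators, 2 rose and 3 did not pass (median 0.07), and with the length trend removed 1 rose and 1 fell. SIN3, the scaffold of the histone deacetylase complex that Opi1 recruits, had signals of 2683.3, 4433.4 and 3511.5 on the zymolyase arrays and 973.3, 1392.1 and 1455.8 on the control arrays, and rose 2.77-fold (adjusted p = 0.00262, limma). UME6, a DNA-binding repressor that also recruits Sin3, rose 1.98-fold (adjusted p = 0.0181). With the length trend removed SIN3 stayed past the threshold (log2 0.78, adjusted p = 0.0357) and UME6 did not (0.59, adjusted p = 0.119). UME6 also lost its call without zymolyase array 2 or 3 or control array 2, at adjusted p of 0.0546 to 0.0734. SCS2, which anchors Opi1 at the endoplasmic reticulum, had a log2 change of -0.11 (adjusted p = 0.720), and was named after its values were seen.

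Cardiolipin synthesis had 1 of 5 genes higher and 1 lower (median 0.14), and 2 of 5 higher with the length trend removed (median 0.40). PGS1, which makes its precursor phosphatidylglycerol phosphate, rose 1.94-fold (adjusted p = 0.00868, limma), and CRD1, the cardiolipin synthase, fell 1.62-fold (adjusted p = 0.0179). The call of CRD1 was lost with the length trend removed (0.0582) and without zymolyase array 2 (0.0693) or control array 3 (0.0714). TAZ1, the cardiolipin-remodelling transacylase and named after its values were seen, had a log2 change of 0.50 (adjusted p = 0.0506), and was called higher with the length trend removed (0.0206) and with the replicate block (0.0115). Of 6 phospholipases 1 rose and 1 fell (median -0.21), and 3 fell with the length trend removed (median -0.50). NTE1, which deacylates phosphatidylcholine, and the phospholipase B gene PLB2, both named after their values were seen, had log2 changes of -0.30 and -0.29 on the deposited scaling (adjusted p = 0.365 and 0.207) and of -1.02 and -0.60 with the length trend removed (adjusted p = 0.0185 and 0.0173). SPO14, the phospholipase D, rose 1.64-fold (adjusted p = 0.00809), and with the length trend removed its log2 change was -0.01. SPO1, a phospholipase-like protein of meiosis, had dim signals of 29.8, 39.8 and 56.8 on the zymolyase arrays and 133.9, 121.6 and 157.8 on the control arrays and fell 3.37-fold (adjusted p = 0.00268).

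The genes whose log2 signals ran most like those of INO1 and CHO1 over the 6 arrays were sought among the 5273 genes above background on every array. For INO1 these were LDB16 (Pearson's r = 0.997), RML2 (0.996) and PSF3 (0.996). For CHO1 they were NAP1 (0.998), YPT6 (0.997) and ERG13 (0.996). The correlation takes no account of the size of a change. LDB16, RML2 and PSF3 had log2 changes of -0.77, -0.63 and -1.02, against -1.97 for INO1. NAP1, YPT6 and ERG13 had log2 changes of -1.66, -0.44 and -2.12, against -2.25 for CHO1. ERG13, the HMG-CoA synthase of sterol synthesis, had signals of 1891.5, 666.4 and 761.5 on the zymolyase arrays and 5208.5, 4086.2 and 3696.4 on the control arrays. Among the 10 genes, OPI3 was the most like CHO1 (0.965) and PIS1 the most like INO1 (0.956), while PSD2 mirrored CHO1 (-0.994). The 6 arrays share the group difference and the array numbers, so these values are a description.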

How the data were processed

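Total RNA, about 4 µg per sample, was measured on 6 single-colour Affymetrix arrays. The deposited values are MAS5 signal intensity per probe set, per the submitters' processing notes; no version, setting or detection call is used here. The mean after trimming 2% at each end was 500.2 to 500.3 on every array, so the authors' values were scaled to a common mean. Probe sets were named through GEO's platform annotation, with symbols updated from NCBI's R64 gene table; 5498 of 10928 matched an S. cerevisiae gene, 1746 belonged to the other species, and the brightest was used for the 47 genes with several. None of the 7 zeros, set to 0.1, was in an S. cerevisiae probe set. Log2 signals of all 5449 genes were fitted with limma 3.58.1 in R 4.3.3 (lmFit, eBayes with an intensity trend), checked on simulated data; permutation tests used scipy 1.17.1. Log2 changes are zymolyase minus control. Whether the samples are separate cultures is not stated; the p-values reflect the spread between them alone, possibly a technical one, and precision is limited by the number of arrays.

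Arrays with the same number deviated from their group means together (r across genes 0.49, 0.20 and 0.41 for numbers 1, 2 and 3, all above 0.1). On this basis, not on the labels, they were treated as pairs. Zymolyase array 2 with control array 3 (0.20) and zymolyase array 3 with control array 2 (0.23) were as close as the arrays numbered 2. The length trend was removed per array with loess (span 0.5) on the log of coding length, which here is each gene's span in the R64 table, a multiple of 3 for 97.0% of genes, with any intron included. The 10 genes, the lists of related genes and the tests were chosen with earlier results of these data known. All 10 genes are named; from each list the called genes were named, up to 4 by smallest p, or the one with the smallest p, and for INO1 and the most changed gene the 3 most alike. Promoter motifs were not analysed here.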

Additional observations from a re-analysis of the deposited data

How the results depend on the processing

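Over 17 alternatives, the 4 falls (CHO1, OPI3, PIS1 and INO1) and the rise of PSD2 kept their direction and call. The adjusted p was at most 0.0215 for CHO1, 0.0382 for OPI3, 0.00794 for PIS1, 0.00773 for INO1 and 0.0204 for PSD2. CHO2 lost its call in 4 settings, INO4 gained one in 5 and OPI1 in 4; the uncalled changes of PSD1 (-0.40 to 0.73) and INO2 (-0.54 to 0.22) took both signs. Of the 10 genes, 1 rose with median centring and 4 with the replicate block, which changed no other call among them; the cause was not tested. Of the 56 related genes, 9 to 16 rose without each array in turn, and 19 fell with the length trend removed or 23 with that and the replicate block. Genes in the dimmest 20% (INO2 among the 10) gave no value under that filter. The 3′ over 5′ difference held in all its settings.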
